A study of Mus musculus with 4 samples.

Results

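The basement membrane is a thin sheet of extracellular matrix that underlies epithelia and blood vessels. Laminins, which are trimers of an α, a β and a γ chain, polymerise at the cell surface, and type IV collagen forms a covalent network beside them. Nidogens link the laminin and collagen networks, and perlecan, a large heparan sulfate proteoglycan, attaches to them and binds growth factors. In vessels this sheet separates endothelium from its surroundings, and the laminin chains of vascular basement membrane differ from those of the early embryo.

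The genes described here are 10 core components of that sheet: the collagen IV chains Col4a1 and Col4a2, the nidogens Nid1 and Nid2, perlecan (Hspg2) and the laminin chains Lama1, Lama4, Lama5, Lamb1 and Lamc1. They were taken by gene symbol, as 10 of 18193 measured genes, from probe sets annotated with a single symbol. A gene was represented by its probe set with the highest mean over the 4 arrays, and its other probe sets are given beside it, 21 probe sets in all. Apart from Col4a1 and Col4a2, which share chromosome 8, the genes lie on different mouse chromosomes in RefSeq (GRCm38.p6): Nid1 on 13, Nid2 on 14, Hspg2 on 4, Lama1 on 17, Lama4 on 10, Lama5 on 2, Lamb1 on 12 and Lamc1 on 1.

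The cells were mouse embryonic stem cells of the line TT2, heterozygous for a Venus fluorescent protein knocked into Etv2, an ETS transcription factor needed for blood and endothelium. They were differentiated on OP9 bone marrow stroma, and the labels give day 5. Flk-1 positive cells were then sorted by Venus fluorescence into an Etv2-Venus negative population (2 arrays) and a positive one (2 arrays), and the labels number each pair 1 and 2. Both populations carry the same knock-in allele and were selected on Flk-1, a VEGF receptor and the product of Kdr. They came from 1 cell line, and nothing in the labels says that the arrays stem from separate cultures, so the spread between arrays may be technical.

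Values are RMA log2 expression per probe set, a relative scale on which 1 unit is a 2-fold change. The array medians over all probe sets lay between 5.46 and 5.52. As a check of the sort, Etv2 was higher in the positive cells by 0.57 (SE 0.13, n = 2 arrays per group), with both positive arrays above both negative ones. It measured 12.03 and 11.87 on the negative arrays, against 12.64 and 12.41 on the positive arrays. Its signal was thus bright in the negative cells too. Kdr differed by 0.13 (SE 0.12). The arrays numbered 1 stood apart from those numbered 2 in both populations. The 24 probe sets of the poly-A spike-in controls averaged 7.34 and 7.56 on the arrays numbered 1 and 3.38 and 3.45 on those numbered 2. Differences within the arrays of each number are therefore given beside the pooled ones. The 3′ minus 5′ signal of the transferrin receptor control, read as a sign of RNA quality, stood at 1.46 and 0.85 on the negative arrays, against 1.91 and 1.21 on the positive arrays, so it too was higher in the positive cells within each number. That of the pyruvate carboxylase control was lower there, at 1.06 and 0.85 against 0.92 and 0.58. That of the β-actin control was higher, at 0.41 and 0.40 against 0.47 and 0.51. Their part in the differences below was not tested.

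Col4a1 and Col4a2 lie on opposite strands of chromosome 8 and overlap at their 5′ ends. In the RefSeq promoter windows (GRCm38.p6) Col4a1 starts at base 11312826 on the minus strand and Col4a2 at base 11312805 on the plus strand, a stretch of 22 bases that both transcripts hold. The RefSeq gene Col4a1 as a whole reaches further, to base 11312889, so the overlap depends on the start taken. The 30 bases around these starts, chr8:11312801-11312830 on the plus strand, are shown because they hold the window starts of both genes. Capitals mark the stretch between the window starts, which holds a GC box (GGGCGG).

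Col4a1 and Col4a2 starts: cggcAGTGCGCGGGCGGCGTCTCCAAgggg

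For a further gene that was higher in the positive cells, Nid1, and one that was not, Hspg2, the bases before the annotated gene are shown, at chr13:13437352-13437601 and chr4:137468553-137468750, both on the plus strand. The first overlaps the pseudogene Gm7426. Capitals mark every match, on either strand, to the 3 motifs searched: CCGGAAG, an extended form of the ETS factor site, the GC box GGGCGG, and CCAAT.

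Nid1: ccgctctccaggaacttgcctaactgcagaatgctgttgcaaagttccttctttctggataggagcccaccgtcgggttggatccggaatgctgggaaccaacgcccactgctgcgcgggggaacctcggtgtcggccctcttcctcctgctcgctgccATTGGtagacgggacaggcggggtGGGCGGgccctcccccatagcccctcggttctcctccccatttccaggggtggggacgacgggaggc

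Hspg2: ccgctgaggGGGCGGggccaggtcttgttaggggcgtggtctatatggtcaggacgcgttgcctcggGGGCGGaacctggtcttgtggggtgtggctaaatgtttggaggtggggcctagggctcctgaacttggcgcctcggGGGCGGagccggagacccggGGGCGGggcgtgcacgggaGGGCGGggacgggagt

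RefSeq windows of 300 bases, 250 before and 50 after the start, were matched for 6 of the 10 genes: Col4a1, Col4a2, Nid1, Hspg2, Lama5 and Lamb1. None of the 6 held CCGGAAG, which 8.9% of all 32851 windows hold. Shorter or other forms of the ETS factor site were not searched. All 6 held the GC box, against 35.7% of all windows, with 5 matches in Hspg2, 4 in Lama5 and 3 in Col4a2. CCAAT was found once each in Col4a1, Col4a2, Nid1 and Lamb1 and in neither Hspg2 nor Lama5, against 37.4% of all windows. The windows of Col4a1 and Col4a2 share 78 bases, so their matches are not separate observations. These matches describe letters in a short window and not bound sites.

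The comparison asks whether the genes of this matrix differ between Flk-1 positive cells with and without Etv2 reporter activity. Col4a1, Col4a2, Nid1 and Lama4 measured 1.50 to 1.63-fold higher in the Etv2-Venus positive cells, with every positive array above every negative array. Lamb1, Lamc1, Lama5 and Nid2 differed by 0.15 or less, and Lama1 and Hspg2 measured lower, by 0.26 and 0.20. None of the 10 passed an adjusted p of 0.05 in limma, as 0% of all genes did. At an unadjusted p under 0.05, 3 of the 10 were higher (Col4a1, Col4a2 and Nid1) and 0 lower, against 7.07% and 4.64% of all genes. In 5 of the 10, Lamc1 being the fifth, both positive arrays lay above both negative ones, against 22.4% of all genes. They lay below in 1, Lama1, against 17% of all genes. The median difference of the 10 was 0.13, beside 0.01 for all genes. The 10 genes were chosen with earlier results of these data known, so these shares are description only. In RNA from a whole population, fewer cells of a type and less RNA per cell cannot be told apart.

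**Figure D1:**
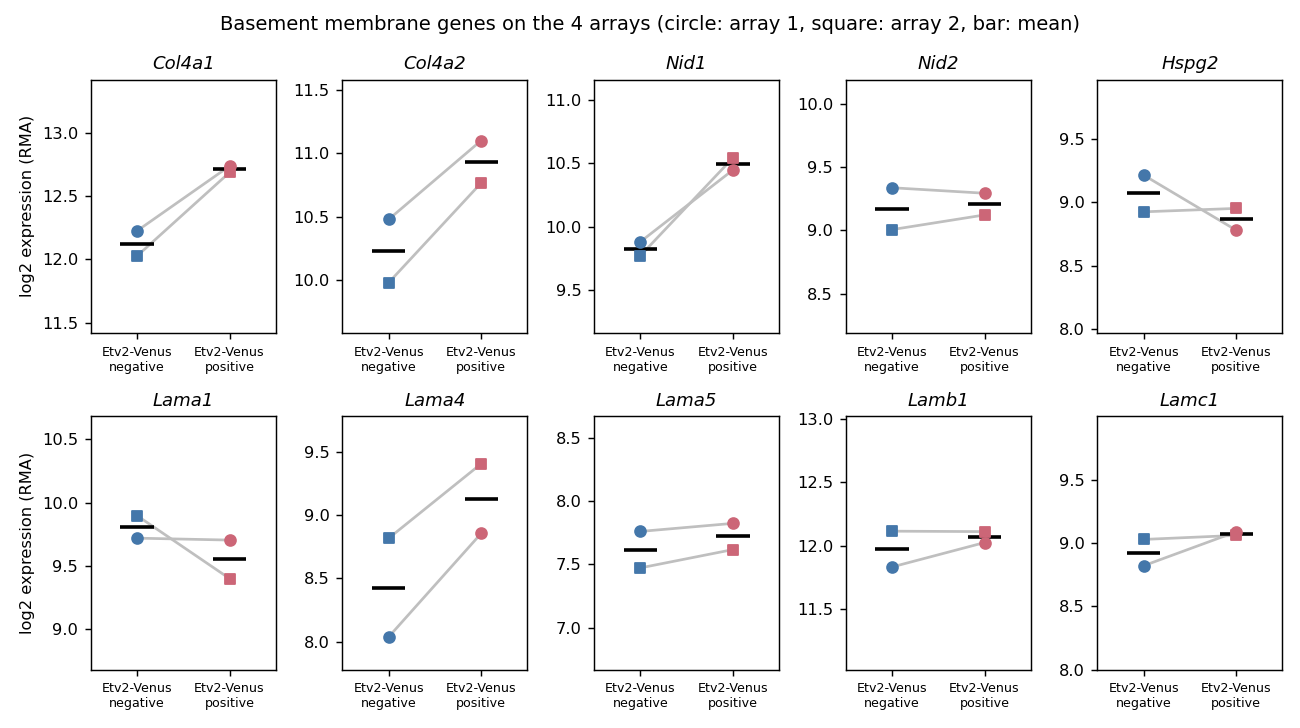
Log2 expression (RMA, vertical axis, each panel spanning 2 log2 units) of the 10 genes on the 2 Etv2-Venus negative (blue) and 2 positive (red) arrays. Circles are arrays numbered 1, squares those numbered 2, grey lines join arrays of one number and black bars are means. In Col4a1, Col4a2, Nid1 and Lama4 both lines slope upwards by 0.51 or more.

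Col4a1 and Col4a2 encode the α1 and α2 chains that form the common collagen IV trimer. Col4a1 measured 12.22 and 12.03 on the negative arrays, against 12.74 and 12.69 on the positive arrays. The positive arrays lay close together and the negative ones below them, without overlap. The difference was 0.59 (SE 0.11, 95% interval 0.30 to 0.87, 1.50-fold), with a limma adjusted p of 0.141. Its second probe set, dimmer at a mean of 9.52, gave 9.34 and 9.04 against 9.94 and 9.75, a difference of 0.66 that goes the same way.

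Col4a2, the partner gene across the shared start region, measured 10.48 and 9.98 in negative cells, against 11.10 and 10.77 in positive cells. In both populations the array numbered 1 was the higher one, by 0.50 and 0.33, so the pooled spread holds a difference between array numbers. The populations differed by 0.71 (SE 0.21, 95% interval 0.14 to 1.27, limma adjusted p = 0.317), and by 0.62 and 0.79 within the arrays numbered 1 and 2. Leaving out the negative array 2 lowered the difference to 0.46, and leaving out the negative array 1 raised it to 0.95. For Col4a1 the differences within the arrays numbered 1 and 2 were 0.51 and 0.66. Col4a2 ranked 295th and Col4a1 446th of the 18193 genes by their differences in the higher direction.

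Nid1 encodes nidogen-1, which binds the laminin γ1 chain and collagen IV. It measured 9.88 and 9.77 in the negative cells against 10.45 and 10.54 in the positive cells. The nearest arrays of the populations were 0.57 apart, against an SD of 0.08 and 0.07 within them (n = 2). The difference was 0.67 (SE 0.10, 95% interval 0.41 to 0.93, 1.59-fold), and its limma adjusted p of 0.101 was the lowest among the 10 genes. The dimmer probe sets of Nid1 differed by 0.34 and 0.48. Their arrays overlapped between populations, and the arrays numbered 2 were higher in both. The brighter of them gave 6.59 and 7.45 against 6.83 and 7.89. With the mean over its probe sets Nid1 differed by 0.50 (limma adjusted p = 0.676).

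Nid2, nidogen-2, has overlapping binding partners. It gave 9.34 and 9.01 on negative arrays, against 9.29 and 9.12 on positive arrays, which overlapped, and the difference of 0.04 (SE 0.15) had a 95% interval of -0.35 to 0.43. Nid1 minus Nid2, a contrast chosen after the values were seen, was 0.54 and 0.76 on negative arrays, against 1.15 and 1.42 on positive arrays. It differed by 0.63, with both positive arrays above both negative ones (exact two-sided permutation p = 0.333, the smallest that 2 arrays against 2 allow).

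Among the laminin α chains the directions differed. Lama4, the α4 chain known from endothelial basement membranes, measured 8.04 and 8.82 in negative cells, against 8.85 and 9.40 in positive cells. Only 0.039 separated the higher negative from the lower positive array, and in both populations the array numbered 2 was the higher one, by 0.78 and 0.55. The pooled difference was 0.70 (SE 0.32, 95% interval -0.15 to 1.55, limma adjusted p = 0.509). Within numbers it was 0.82 and 0.59. Leaving out the negative array 1 lowered it to 0.31, and leaving out the negative array 2 raised it to 1.09. The second Lama4 probe set, near background at a mean of 4.16, differed by -0.02, and the mean over both probe sets gave 0.34.

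Lama1, the α1 chain of the early embryo, measured lower in the positive cells. Its values were 9.72 and 9.90 in negative cells, against 9.71 and 9.40 in positive cells, and only 0.015 separated the nearest arrays. The difference of -0.26 (SE 0.14, 95% interval -0.63 to 0.12, limma adjusted p = 0.599) came mainly from the arrays numbered 2, at -0.50, against -0.02 for those numbered 1. Lama4 minus Lama1, also chosen after the values were seen, was -1.68 and -1.08 on negative arrays, against -0.85 and 0.00 on positive arrays. This contrast differed by 0.96, with the positive arrays above the negative ones (exact two-sided permutation p = 0.333).

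Lama5, the α5 chain of mature epithelial and vascular basement membranes, measured 7.76 and 7.47 in negative cells, against 7.82 and 7.62 in positive cells. The groups overlapped, and the difference was 0.10 (SE 0.14, 95% interval -0.27 to 0.48). Its next probe set differed by -0.10, and that sign disagreement leaves Lama5 without a direction. Lama4 minus Lama5 moved by 0.60 with overlapping arrays (exact two-sided permutation p = 0.667).

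Lamb1 and Lamc1 encode the β1 and γ1 chains, which are shared by trimers of all these α chains. Lamb1 measured 11.83 and 12.11 against 12.02 and 12.11, a difference of 0.09 (SE 0.13, 95% interval -0.24 to 0.43), on a probe set whose suffix marks possible binding to related transcripts. Of its other probe sets, those with means of 9.27 and 7.90 differed by 0.15 and 0.17 with overlapping arrays. The dimmest, at 5.12, differed by -0.35 with arrays apart. Lamc1 measured 8.82 and 9.03 against 9.09 and 9.06, a difference of 0.15 (SE 0.11, 95% interval -0.14 to 0.44), and its second, dim probe set gave 0.16. The upper bounds for both genes lie below the differences measured for Col4a1, Col4a2, Nid1 and Lama4. The 95% intervals of those genes nevertheless overlap those of Lamb1 and Lamc1, so the intervals do not separate them. The mean of Col4a1 and Col4a2 minus that of Lama1, Lamb1 and Lamc1, chosen after the values were seen, was 1.23 and 0.66 on negative arrays, against 1.65 and 1.54 on positive arrays (exact two-sided permutation p = 0.333).

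Hspg2 gave 9.22 and 8.93 in negative cells, against 8.78 and 8.95 in positive cells, which overlapped. The difference was -0.20 (SE 0.14, 95% interval -0.57 to 0.16, limma adjusted p = 0.683). Within numbers it was -0.44 and 0.03, and the second probe set differed by 0.09, so the sign was not the same in either view.

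**Figure D2:**
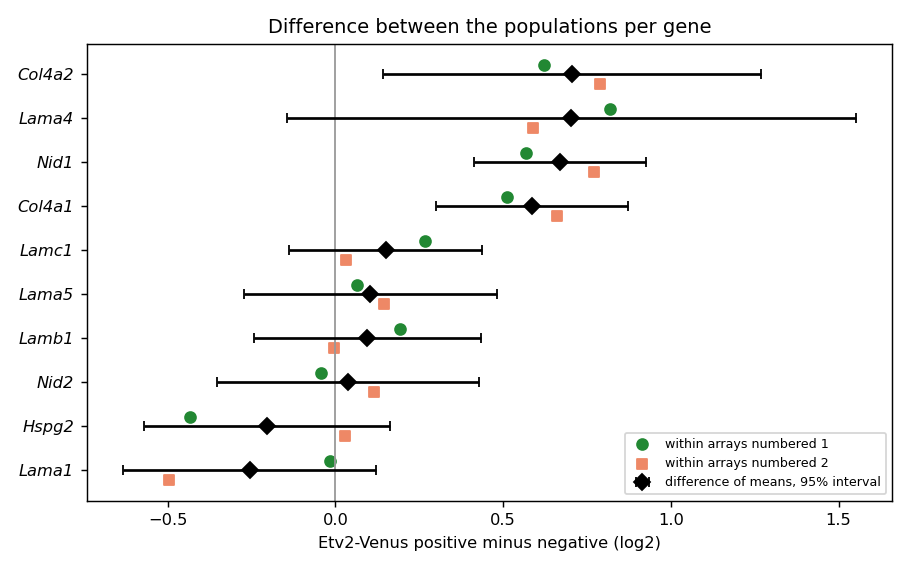
Difference between the populations for each gene (Etv2-Venus positive minus negative, log2, horizontal axis). Diamonds with bars are the difference of means of 2 arrays per group with the 95% interval of the limma fit, green circles the difference within the arrays numbered 1 and orange squares within those numbered 2. The intervals of Nid1, Col4a1 and Col4a2 lie above 0, and that of Lama4 reaches -0.15.

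**Figure D3:**
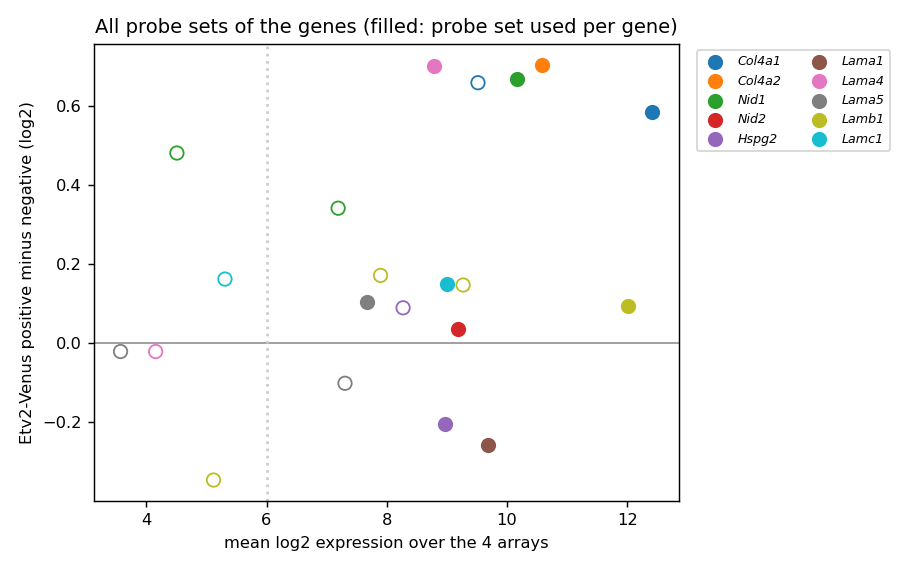
Difference between the populations (log2, vertical axis) against mean log2 expression over the 4 arrays (horizontal axis) for the 21 probe sets of the 10 genes. Filled points are the probe set used per gene, open points the others, and the dotted line is at a mean of 6. The 2 probe sets of Col4a1 and the 3 of Nid1 all lie above 0, and those of Lama4, Lama5, Lamb1 and Hspg2 lie on both sides of it.

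The threshold outcome depended on how the spread was modelled. When the variance followed a trend in mean level, estimated robustly, 0 of the 10 genes were called, against 0.616% of all genes. The lowest limma adjusted p was then 0.0561, for Nid1, followed by 0.0680 for Col4a1. With the array number as a replicate block 0 of the 10 were called, as 0% of all genes were. When the block was combined with the trend, an alternative added after seeing the data, 4 of the 10 were called higher and 0 lower, against 3.39% and 1.98% of all genes. These were Col4a2 (limma adjusted p = 0.0189), Col4a1 (0.0194), Nid1 (0.0254) and Lama4 (0.0305). That fit leaves 1 residual degree of freedom per gene and leans on the spread pooled over genes.

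Over the 4 arrays, the 5 genes of mean 6 or more whose centred values lay closest to those of Col4a1 were Arhgap19, Lifr, Haus5, Cenpc1 and Arhgdib. Their root mean square distances were 0.006 to 0.023 log2 units. Of the basement membrane genes Nid1 was the closest, at 0.073 and rank 70 of 10178, followed by Col4a2 at 0.158 and rank 605. With 4 arrays many genes share such a profile.

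The remaining chains of the same families were dim. None of the 4 other collagen IV chains (Col4a3 to Col4a6) and 1 of 5 other measured laminin chains reached a mean of 6. Their differences ran from -0.13 to 0.09 and from 0.00 to 0.15, smaller than those of Col4a1 and Lama4. Arrays were apart for Col4a6, at -0.13, and Lamc3, at 0.15. None of these genes, nor of the associated proteins, folding factors, receptors and turnover genes below, was called in limma at an adjusted p of 0.05. Counts at an unadjusted p under 0.05 are given instead, beside the 7.07% of all genes that were higher and the 4.64% that were lower at that level.

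Associated basement membrane proteins went both ways, with a median of -0.06 over 16 measured genes, 2 higher and 2 lower. Col18a1, the collagen from which endostatin is cleaved, measured 10.66 and 10.92 against 11.27 and 11.52, a difference of 0.60 (SE 0.15). Tgm2, a transglutaminase that crosslinks matrix proteins, differed by 0.55 (SE 0.17). Ntn4, a netrin related to laminin chains, differed by -0.54 (SE 0.11) and the matrix protein Fbln2 by -0.39 (SE 0.12). Fbln1 and Smoc1 were at -0.24 and -0.50 with arrays apart, but outside that level, as was Tinag, near background, at 0.05. In all, 3 of the 16 had arrays apart higher and 7 lower, against 22.4% and 17% of all genes.

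Genes of collagen folding and export had a median of 0.08 over 17 measured genes, 2 higher and 1 lower. Plod1, a lysyl hydroxylase, measured 7.13 and 7.23 against 7.73 and 7.63, a difference of 0.50 (SE 0.10), and Serpinh1, the collagen chaperone HSP47, differed by 0.25 (SE 0.09). P4ha1, a prolyl 4-hydroxylase subunit, and Ppib, a prolyl isomerase, differed by 0.23 and 0.14 with arrays apart. Of the related genes Plod2, P4ha2 and P4ha3 differed by -0.39, -0.38 and -0.23 and Plod3 by 0.09, all with overlapping arrays. P3h2, a prolyl 3-hydroxylase that modifies collagen IV, measured 9.10 and 8.81 in negative cells, against 8.21 and 7.81 in positive cells. Its difference was -0.94 (SE 0.18, limma adjusted p = 0.148). Its arrays were apart by 0.60, so an enzyme acting on collagen IV measured lower where Col4a1 and Col4a2 measured higher.

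Cell surface receptors of basement membrane had a median of -0.01 over 19 genes, 3 higher and 2 lower. Itga1, an integrin chain that binds collagen IV, differed by 0.65 (SE 0.20), Itga3, which binds laminin, by 0.44 (SE 0.11) and Itgb3 by 0.55 (SE 0.09). Ddr1, a collagen-binding receptor tyrosine kinase, measured 8.93 and 9.10 against 8.15 and 8.31, a difference of -0.79 (SE 0.11, limma adjusted p = 0.0985). Itgb5 differed by -0.65 (SE 0.14). Itga6, the other laminin-binding chain with arrays apart, was at -0.24 (SE 0.14), Sdc2 at -0.29 and Sdc1 at 0.17. Receptors of collagen and of laminin thus stood on both sides of 0.

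Genes of basement membrane turnover had a median of -0.02 over 16 measured genes, 2 higher and 0 lower. Bmp1, a protease that processes matrix precursors, and Adamts1, a metalloprotease that cleaves proteoglycans, differed by 0.40 (SE 0.11) and 0.36 (SE 0.10). The membrane protease Mmp14 and the inhibitors Timp2 and Timp3 were at -0.13, -0.24 and -0.16, with arrays apart. The largest difference of the list was that of Mmp9, at 0.62 (SE 0.56), with overlapping arrays. Within the arrays numbered 1 and 2 Mmp9 differed by 0.77 and 0.48.

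**Figure D4:**
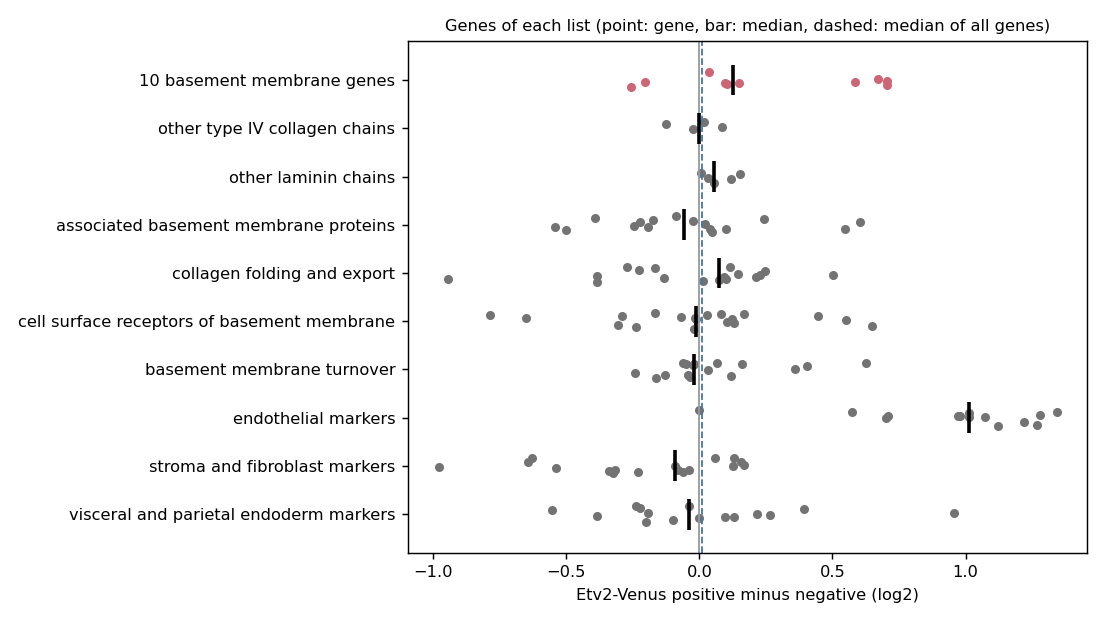
Difference between the populations (Etv2-Venus positive minus negative, log2, horizontal axis) for every measured gene of each list. Points are genes, black bars list medians, and the dashed line is the median of all genes at 0.01. The 10 basement membrane genes fall into 4 between 0.59 and 0.71 and 6 between -0.26 and 0.15, and endothelial markers have a median of 1.01.

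Of the markers of cell types that make basement membrane, the endothelial ones measured higher in the positive cells, though no marker of any list passed an adjusted p of 0.05 in limma. The endothelial list, like the others, was chosen with earlier results of these data known, so its shares are not independent support. Of 14 endothelial markers 13 had both positive arrays above both negative ones, against 22.4% of all genes, and 8 were at least 2-fold higher, against 0.599% of all genes. With the variance trend and robust estimation 6 of the 14 passed an adjusted p of 0.05 in limma, against 0.616% of all genes. Their mean level was 7.23 and 7.31 on negative arrays, against 8.17 and 8.25 on positive arrays. Sox18, Flt4, Mmrn2 and Egfl7 differed by 1.22, 1.27, 1.28 and 0.97, each more than any of the 10 genes, and the late marker Emcn was dim, at 3.26 to 3.50 on all arrays. Stroma and fibroblast markers had a median of -0.09, with 1 of 17 measured apart higher (Col5a1, at 0.16) and 3 apart lower (Cxcl12, Vcam1 and Col1a1, at -0.63, -0.33 and -0.54), where 17% of all genes were apart lower. The other 13 overlapped. Their mean level was 6.65 and 6.12 in negative cells, against 6.58 and 5.76 in positive cells, and 8 of 17 reached a mean of 6. Col1a2 and Col3a1, collagen genes of fibroblasts named after their values were seen, were higher on the arrays numbered 1 in both populations. So were Col1a1, Col5a1, Col6a1, Col6a2, Adipoq, Fabp4, Pparg, Dcn, Lum and Postn of the same list. Only Cxcl12 and Lepr were lower on those arrays in both populations, while Cebpa, Thy1 and Vcam1 differed in direction between the populations. Col1a2 measured 10.02 and 8.41 in negative cells, against 9.79 and 7.96 in positive cells, and Col3a1 7.86 and 5.90 against 7.73 and 5.39. The cells were sorted on Flk-1, and how far this removed stroma cells was not tested. Visceral and parietal endoderm, whose parietal part is a rich source of laminin and collagen IV, had 2 of 15 measured markers apart higher and 4 lower, with 9 overlapping and a median of -0.04. The 2 were Sox17 and Thbd, at 0.96 and 0.39, which endothelium also expresses, while Gata6, Hnf4a, Rbp4 and Amn were at -0.38, -0.19, -0.56 and -0.24. The mean level of this list was 6.20 and 6.09 against 6.26 and 6.04. The part of these cell types in the basement membrane differences was not tested.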

How the data were processed

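The deposited table holds log2 expression for each probe set. The submitters' processing notes name RMA and R 2.8.0 as what the authors used. The base of the logarithm was read from the values, and the chip definition is not given in the sources used here. RMA removes shifts common to all genes and compresses differences near background and saturation. The number of arrays limits the precision.

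Groups and array numbers came from the sample titles, and symbols from the platform annotation, updated by Entrez identifier with RefSeq genes of GRCm38.p6. The fit (limma 3.58.1, R 4.3.3, functions lmFit and eBayes) had group as its sole term, 2 residual and 2.68 prior degrees of freedom, and Benjamini-Hochberg adjustment over 18193 genes. Tests were two-sided, and 95% intervals used the moderated variance. The same fit was also run on simulated data, which held no effect of the array number. Promoter sequences are from RefSeq (GRCm38.p6). Protein sequences were not analysed here. Figures were drawn with matplotlib 3.10.9.

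The members and gene lists were chosen with earlier results of these data known. Named genes were all 10 members, Etv2 and Kdr, up to 4 genes per direction and list with arrays apart and the smallest p, and the 5 genes nearest to Col4a1. Emcn, Col1a2, Col3a1, Col6a1, Col6a2 and Lepr were added after their values were seen. So were Plod2, Plod3, P4ha2, P4ha3, Mmp9, Adipoq, Fabp4, Pparg, Dcn, Lum, Postn, Cebpa and Thy1. Listed genes without a match among the measured genes were not analysed here. Alternatives were every probe set, the mean over probe sets, a mean of at least 6, a variance trend with robust estimation, quantile normalization again, median centring, a block for the array number, and the removal of single arrays. Block and trend together were added after seeing the data.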

Additional observations from a re-analysis of the deposited data

Results flagged for a closer look

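The poly-A spike-in controls, which lie outside the comparison of genes and are added to RNA before labelling, carried signal on some arrays only. Their 24 probe sets had a mean of 7.45 log2 units on the arrays numbered 1 and 3.41 on those numbered 2, and 24 of 24 were higher on both arrays numbered 1 than on both numbered 2. Each population has 1 array of each number. Within the arrays of either number Col4a1, Col4a2, Nid1 and Lama4 were higher in the Etv2-Venus positive cells, by 0.51 to 0.82 for number 1 and 0.59 to 0.79 for number 2.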

How the results depend on the processing

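Col4a1, Col4a2, Nid1, Lama4, Lamc1, Lama1 and Hspg2 kept their direction under all 12 alternatives, but their sizes varied. Several of the 12 could not change a member's difference, so they say nothing on direction. These were every probe set, the mean filter, the variance trend, the block, and block with trend. The mean over probe sets could not change it for genes with a single probe set. Without 1 array Col4a2 ran from 0.46 to 0.95, Lama4 from 0.31 to 1.09, Lamc1 from 0.046 to 0.25, Lama1 from -0.41 to -0.10 and Hspg2 from -0.35 to -0.059. The second probe set of Hspg2 has the opposite sign, so its direction is not settled. The second probe set of Lama4, near background at a mean of 4.16, differed by -0.02, and the mean over both gave 0.34. Over all genes limma called 0, but 79 among genes with a mean of at least 6, 112 with the trend and robust estimation, and 977 with the replicate block and the trend together, where 4 of the 10 members were called. The cause of these changes was not tested. The median of the members without 1 array ran from 0.14 to 0.24. Without 1 array Nid2 ran from -0.13 to 0.20, Lama5 from -0.040 to 0.25 and Lamb1 from -0.047 to 0.24, so these 3 have no settled direction. Lama5 was at -0.0057 with the mean over its probe sets, whose signs differ. The labels do not say what the array numbers share. Deviations of same-numbered arrays correlated at 0.543 over genes, and the replicate block alone left the median of the members at 0.13 and called 0 genes. With it the limma adjusted p of Col4a1, Col4a2, Nid1 and Lama4 was 0.106, 0.0957, 0.106 and 0.107. The medians of the 9 other lists moved by more than their spread between arrays in 20 of 107 results.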
